A study of Mus musculus with 6 samples.

Results

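Interferon-induced genes are the transcripts that cells raise when interferons, the cytokines of antiviral and antibacterial defence, bind their receptors. The set described here holds 41 mouse genes named by symbol as induced by type I or type II interferon, of which 39 were found by symbol among the 11717 genes of the deposited table, and 2, Ifi44 and Iigp1, were not analysed here. The 39 fell into 33 members called type I here (sensors, transcription factors, antiviral effectors, protein modifiers and other induced proteins) and 6 GTPase members of the Gbp and Irg families, Gbp2, Gbp3, Gbp7, Igtp, Irgm1 and Ifi47. Some of the 33, Irf1 among them, also respond strongly to interferon gamma, the type II interferon.

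RNA was sequenced from natural killer (NK) cells purified from C57BL/6 spleens, in 3 libraries from mice labelled IL-15Tg-Xbp1s cKO and 3 from mice labelled IL-15Tg WT. The mice of both groups carried the IL-15 transgene, so the WT animals too received IL-15, a cytokine that drives NK cell growth, from a transgene. The cKO mice had in addition a conditional knockout directed at Xbp1s, the spliced transcription factor of the unfolded protein response. The sources used here do not give the promoter that drives the recombinase, that of the transgene, or the ages of the mice. Nor do they say that each library is a mouse of its own, so p-values reflect the spread among libraries alone, part of which may be technical.

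Type I interferons signal through JAK1 and TYK2 to a complex that holds STAT2 and IRF9 and binds the interferon-stimulated response element (ISRE) in promoters. Interferon gamma acts through the gamma-activated site (GAS) in promoters, and through IRF1 on many Gbp and Irg genes. NK cells are a main source of interferon gamma and respond to type I interferon with greater cytotoxicity. The labels name no interferon treatment, so the libraries report the level of these genes in NK cells as purified.

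Promoter sequences show what the members share apart from the list they were drawn from. RefSeq windows on GRCm38.p6, from 250 bases before to 50 bases after a start site, matched 30 of the 39 members by symbol and gave 35 windows. The ISRE core was searched as GAAA, any 2 bases and GAAA again, and the GAS core as TTC, any 3 bases and GAA, each on both strands. The GAS core reads the same on either strand, and matches may overlap each other. The ISRE core was found in 18 of 35 member windows, or 51.4%, against 3.44% of the 32851 windows of all genes. The GAS core was found in 9 of 35 member windows, or 25.7%, against 8.30% of all windows. By gene, 17 of the 30 members held an ISRE core, 9 a GAS core, 5 both and 9 neither. Of the 6 GTPase members 5 held an ISRE core, and of the 24 type I members with a window 12 did.

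The stretches below come only from members with a core. They are shown to compare arrangements among antiviral genes and Gbp and Irg GTPases that hold an ISRE core, a GAS core or both. Each reads 5′ to 3′ on the strand of the gene and ends before the start site, and capitals mark every ISRE or GAS core. An ISRE core on the other strand appears as TTTC, 2 bases and TTTC.
Isg15, chr4:156200860-156200911, minus strand: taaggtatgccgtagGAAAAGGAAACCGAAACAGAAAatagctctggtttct
Ifit1, chr19:34640760-34640819, plus strand: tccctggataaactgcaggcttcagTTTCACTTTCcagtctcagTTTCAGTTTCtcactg
Ifit3, chr19:34583327-34583428, plus strand: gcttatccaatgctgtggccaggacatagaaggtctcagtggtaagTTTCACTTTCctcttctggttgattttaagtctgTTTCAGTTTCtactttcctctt
Oas1a, chr5:120907526-120907567, minus strand: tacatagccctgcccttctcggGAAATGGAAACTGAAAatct
Rsad2, chr12:26456541-26456594, minus strand: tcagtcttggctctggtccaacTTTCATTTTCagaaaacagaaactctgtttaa
Bst2, chr8:71537569-71537626, minus strand: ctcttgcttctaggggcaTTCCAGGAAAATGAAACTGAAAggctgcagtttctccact
Irf1, chr11:53769900-53769956, plus strand: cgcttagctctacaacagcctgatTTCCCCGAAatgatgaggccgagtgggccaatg
Gbp2, chr3:142620582-142620635, plus strand: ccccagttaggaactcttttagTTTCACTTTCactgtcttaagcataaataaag
Gbp3, chr3:142559975-142560032, plus strand: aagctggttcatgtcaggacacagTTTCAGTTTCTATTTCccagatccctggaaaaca
Gbp7, chr3:142530227-142530335, plus strand: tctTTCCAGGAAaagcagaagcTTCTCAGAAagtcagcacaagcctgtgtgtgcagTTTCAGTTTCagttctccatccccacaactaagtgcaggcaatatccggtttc
Igtp, chr11:58199498-58199555, plus strand: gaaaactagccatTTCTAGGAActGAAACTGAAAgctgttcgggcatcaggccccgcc
Irgm1, chr11:48871421-48871474, minus strand: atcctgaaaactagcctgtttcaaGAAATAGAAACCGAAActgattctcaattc

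In Isg15, which encodes the ubiquitin-like modifier ISG15, 3 overlapping cores ran from position -78, counted in bases from the start site. In Gbp7 a single ISRE core at -53 stood downstream of 2 GAS cores at -106 and -87. In Irf1, the transcription factor that interferon gamma induces, the 2 windows held a GAS core at -90 and no ISRE core. In Igtp the GAS core at -45 lay 2 bases from the ISRE core at -34. A match is a description of letters and not a shown binding site.

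**Figure D1:**
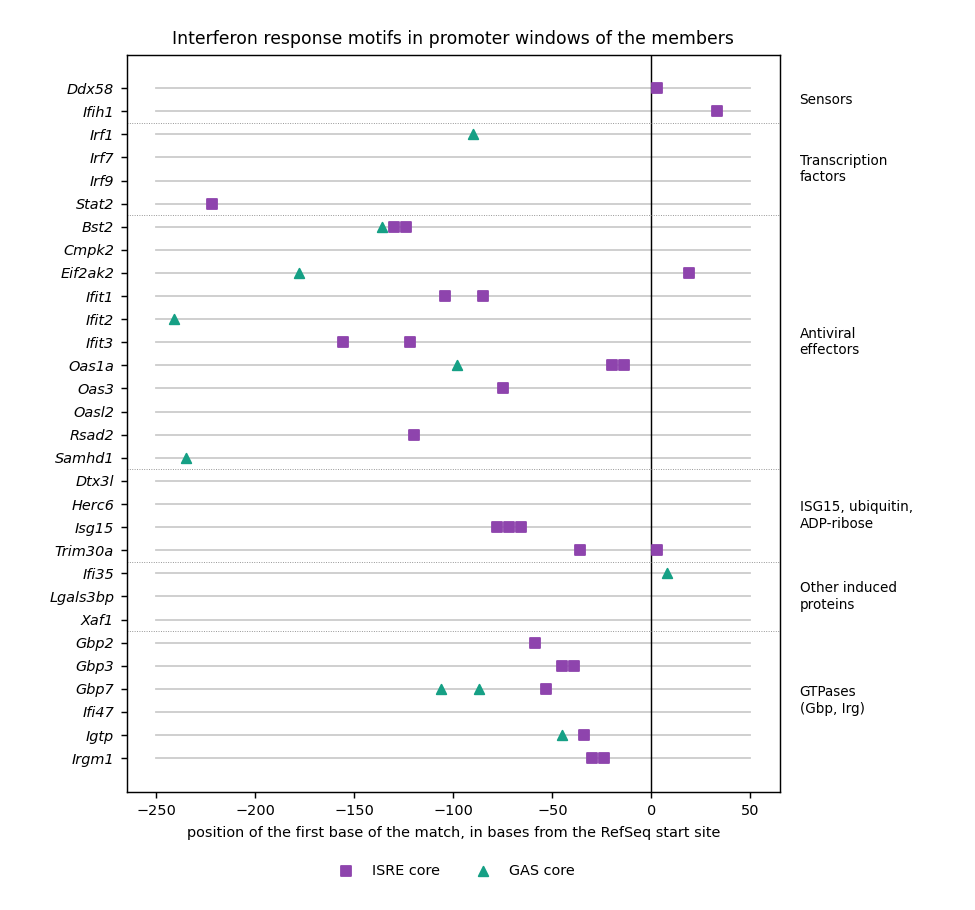
Positions of ISRE cores (squares) and GAS cores (triangles) in the RefSeq promoter windows of 30 members, with the first base of each match in bases from the start site on the horizontal axis and genes grouped by role; members with 2 start sites have both windows on 1 line. The GTPase cores lie between -106 and -24, and 9 of the 30 lines are empty.

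The members were spread over 14 chromosomes, and 15 of them lay within 200 kb of another member. Gbp7, Gbp3 and Gbp2 followed each other on chromosome 3, Ifit2, Ifit3 and Ifit1 on chromosome 19, and Mx1 and Mx2 on chromosome 16 with 72.4 kb between them. Dtx3l and Parp9 on chromosome 16 overlap on opposite strands and share 458 exon bases. Whether counting used strand is not stated in those sources, so reads of that stretch cannot be told apart. Igtp shares 162 exon bases with Irgm2 on the same strand, and the Gbp, Ifit, Oas and Irg families hold near relatives, so the split of reads within them is uncertain.

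Before the values, 3 facts of the libraries bear on all of them. The 6 libraries held 26297292 to 29366756 reads over the listed genes, and a member had 34 to 12508 reads per library. Xbp1, the targeted gene, was at 35.1, 33.4 and 39.7 CPM (gene reads scaled to 1000000 for the sum of the listed genes) in cKO libraries 1, 2 and 3, against 42.9, 61.4 and 63.5 CPM in WT libraries 1, 2 and 3, with no overlap between the groups, and these values count the whole gene and not the spliced form. Over all genes each library was nearest to a library of the other genotype: by chi-square of the reads per degree of freedom, cKO library 2 and WT library 1 differed by 4.78, cKO library 1 and WT library 2 by 7.26, and cKO library 3 and WT library 3 by 14.7, where pairs within a genotype differed by 16.4 to 42.4.

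No interferon-induced gene passed the test between the genotypes, and most lay within 0.2 of 0 on the log2 scale. All 39 members were above the filter on low values. In the limma test over all 11343 genes tested, with Benjamini-Hochberg adjustment at 0.05, none of the 39 members passed in either direction, as 0.0% of all genes did (adjusted p = 1.00 for each member). At an unadjusted p under 0.05 limma listed 1 member, Mx2, which was higher in cKO, where the share over all genes was 1.17% (0.846% higher and 0.326% lower in cKO). The edgeR quasi-likelihood test and DESeq2, both on recovered reads, also called 0 members, where DESeq2 called 0.0529% of all genes. Each listed 1 member without adjustment, where edgeR listed 1.28% and DESeq2 1.37% of all genes. Of the 39 members 23 had a log2 fold change of cKO over WT above 0 and 16 below 0, where 55.5% of all genes lay above 0 and 44.5% below. The median log2 fold change of the members was 0.019, on the log2(CPM + 0.5) scale used throughout, where that of all genes tested was 0.0087. In 35 of 39 members the log2 fold change was smaller than 0.2 in size, and the 95% confidence interval held 0 in 38. The groups did not overlap in 2 members, Mx2 with all cKO libraries higher and Gbp7 with all cKO libraries lower, where 4.32% of all genes had groups that did not overlap (2.55% with all cKO libraries higher).

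**Figure D2:**
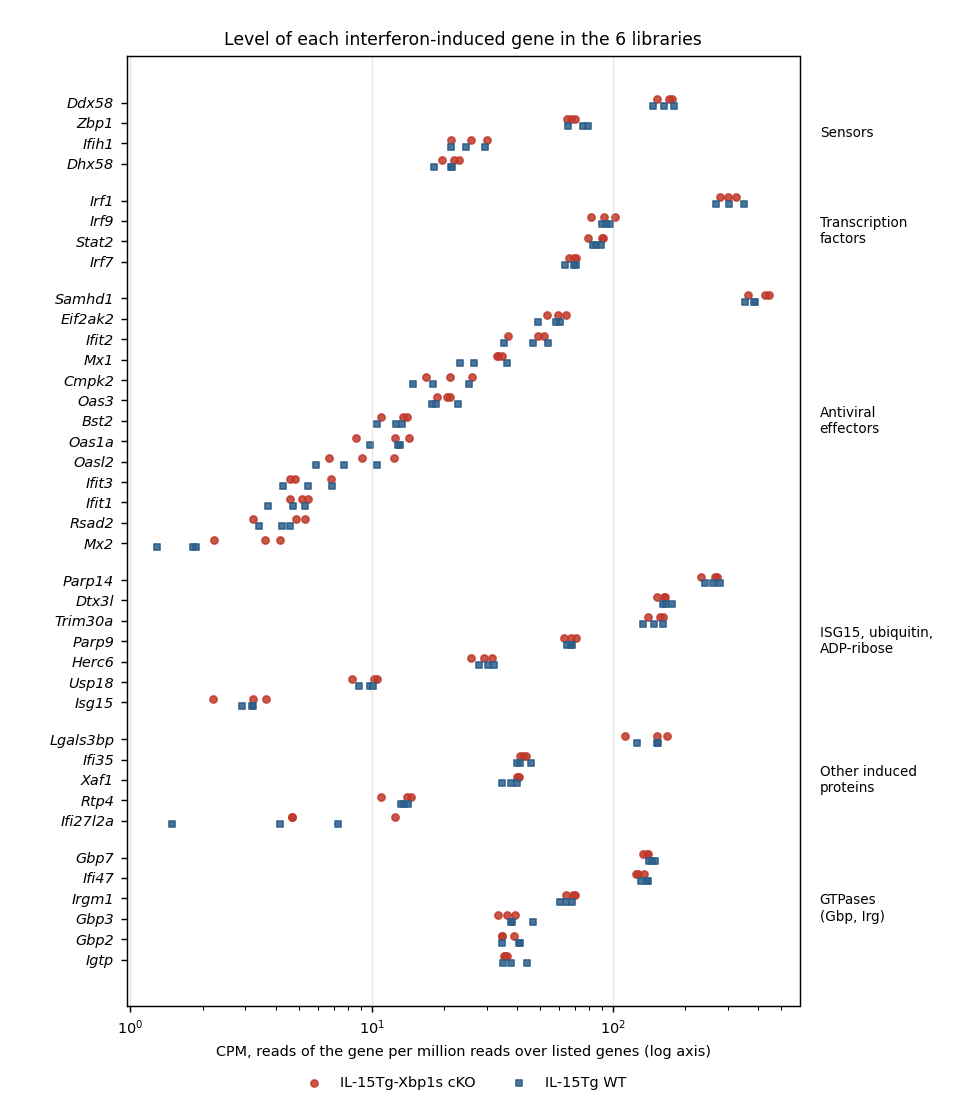
CPM of each of 39 members in 3 cKO libraries (circles) and 3 WT libraries (squares), on a log axis, grouped by role. The ranges of circles and squares overlap in every gene except Mx2 and Gbp7. In Mx2 the cKO libraries sit at 2.21 CPM and above and the WT libraries at 1.88 CPM and below. In Gbp7 the gap is small. Ifi27l2a has the widest spread on the log axis, from 1.48 to 12.5 CPM.

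The basal level itself differed widely between members. Per kilobase of exon, which allows genes to be compared, the mean over 6 libraries ran from 0.692 CPM per kb for Mx2 to 76.4 CPM per kb for Irf1. After Irf1 came Ifi47 at 53.8, Lgals3bp at 50.6 and Samhd1 at 43.0 CPM per kb, and next to Mx2 at the low end were Rsad2 at 0.986, Oasl2 at 1.37 and Ifit1 at 1.82 CPM per kb. The highest of these genes are a transcription factor, an Irg GTPase, a secreted glycoprotein and an antiviral effector, Samhd1. The lowest are antiviral effectors too. Others of that role lay between, such as Bst2 at 13.9, Ifit2 at 11.6 and Eif2ak2 at 11.2 CPM per kb.

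The sensors recognise foreign or misplaced nucleic acid, and their levels were close in both genotypes. Ddx58, which encodes the RNA sensor RIG-I, was the most abundant, at 170, 153 and 177 CPM in cKO libraries 1, 2 and 3, against 147, 163 and 179 CPM in WT libraries 1, 2 and 3. The cKO range lay within the WT range, with a log2 fold change of 0.034 (SE 0.089). Zbp1, a sensor of Z-form nucleic acid that can trigger cell death, was at 70.0, 67.0 and 64.9 CPM in cKO libraries, against 65.5, 79.1 and 75.6 CPM in WT libraries. WT libraries 2 and 3 were above all cKO libraries and WT library 1 was among them, with a log2 fold change of -0.12 (95% confidence interval -0.31 to 0.07, limma adjusted p = 1.00). Dhx58, which encodes the RIG-I-like regulator LGP2, was at 21.9, 23.0 and 19.5 CPM in cKO and 21.3, 21.5 and 18.2 CPM in WT. Its lowest library in each genotype was library 3, and so it was for Ifih1, the gene of the sensor MDA5, whose log2 fold change was 0.033.

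Among the transcription factors of the response the median log2 fold change was -0.0026, with 2 of 4 above 0. Irf1 was at 301, 277 and 323 CPM in cKO libraries 1, 2 and 3, against 267, 303 and 351 CPM in WT libraries 1, 2 and 3. Its mean of 301 ± 22.9 CPM in cKO was within the spread of 307 ± 41.9 CPM in WT (SD, n = 3 each). Irf7, which amplifies type I interferon production, was at 69.1, 66.0 and 70.7 CPM in cKO, against 63.5, 68.8 and 70.3 CPM in WT, and its log2 fold change of 0.023 had a 95% confidence interval of -0.12 to 0.17. Irf9, the DNA-binding part of the type I complex, was at 102, 91.9 and 81.5 CPM in cKO libraries and at 94.1, 97.5 and 90.1 CPM in WT libraries. The cKO values lay on both sides of the WT values. Stat2, its partner, had a log2 fold change of 0.019 (SE 0.070).

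The antiviral effectors act on viral RNA, nucleotides or budding. Of the 13, 11 had a log2 fold change above 0 and 2 below 0, and their median was 0.099. The count was 6 of 13 and the median -0.0081 when WT library 3 was left out, and without cKO library 3 it was 13 of 13. Mx2 is a dynamin-like GTPase of antiviral defence, and in C57BL/6 mice, as in most laboratory strains, the genes Mx1 and Mx2 carry mutations that disrupt the proteins. Mx2 was at 4.19, 2.21 and 3.60 CPM in cKO libraries 1, 2 and 3, against 1.88, 1.82 and 1.29 CPM in WT libraries 1, 2 and 3. All cKO libraries were above all WT libraries, with cKO library 2 nearest to them. The means were 3.34 ± 1.02 CPM in cKO and 1.66 ± 0.322 CPM in WT (SD, n = 3 each), and the fitted difference was 0.80 on the log2 scale (95% confidence interval 0.22 to 1.38). Its limma adjusted p was 1.00. By unadjusted p Mx2 ranked 26 of 11343 genes. The exact permutation test (two-sided) returned 0.1, below which 3 libraries a group cannot go.

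Mx1, its neighbour, was at 33.4, 33.2 and 34.8 CPM in cKO libraries, against 23.3, 26.5 and 36.4 CPM in WT libraries. WT library 3 was the highest of all, so that the groups overlapped, with a log2 fold change of 0.26 (95% confidence interval -0.12 to 0.63) that was 0.12 without WT library 1 and 0.44 without WT library 3. Samhd1, which encodes a deoxynucleotide hydrolase that starves retroviruses, was at 426, 363 and 444 CPM in cKO and at 352, 388 and 386 CPM in WT. Its cKO libraries 1 and 3 lay above all WT libraries and cKO library 2 lay among them, with a log2 fold change of 0.13 (SE 0.087). The RNA-binding Ifit genes had log2 fold changes of 0.14 for Ifit1, 0.027 for Ifit2 and -0.025 for Ifit3. The oligoadenylate synthetase family, whose active members switch on RNase L, had 0.039 for Oas3, -0.037 for Oas1a and 0.21 for Oasl2. The remaining effectors, Rsad2 (viperin), Cmpk2 (a mitochondrial nucleotide kinase), Eif2ak2 (the RNA-dependent kinase PKR) and Bst2 (tetherin), had log2 fold changes between 0.069 and 0.15, of which that of Rsad2 turned below 0 with quantile scaling. The standard errors of the Ifit and Oas genes and of these 4 ran from 0.103 to 0.277, and each difference was smaller than its own error.

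The genes of ISG15, ubiquitin and ADP-ribose modification had a median log2 fold change of -0.026, with 3 of 7 above 0. Parp14, an ADP-ribosyltransferase, was the most abundant, at 266, 232 and 269 CPM in cKO libraries 1, 2 and 3, against 242, 260 and 278 CPM in WT libraries 1, 2 and 3. The ranges overlapped, with cKO library 2 below all WT libraries and WT library 3 above all cKO libraries. Dtx3l, the ubiquitin ligase that pairs with PARP9, was at 164, 153 and 163 CPM in cKO and at 161, 167 and 176 CPM in WT, with a log2 fold change of -0.070 (95% confidence interval -0.20 to 0.06). Trim30a, a restrainer of inflammatory signalling, was at 161, 141 and 157 CPM in cKO and at 133, 161 and 149 CPM in WT. Isg15 was low, at 3.23, 3.65 and 2.19 CPM in cKO and 3.18, 2.90 and 3.23 CPM in WT. Its protease Usp18, which also damps the type I receptor, had a log2 fold change of 0.0051 (SE 0.124), and Herc6, the mouse ligase for ISG15, one of -0.058 (SE 0.098). The log2 fold change of Parp9 was 0.0037, and the values of Usp18 and Parp9 turned below 0 with median-of-ratios scaling, as that of Usp18 did with quantile scaling.

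Of the other induced proteins Ifi27l2a varied most between libraries. Ifi27l2a, a small protein of the Ifi27 family strongly induced by type I interferon, was at 12.5, 4.67 and 4.68 CPM in cKO libraries 1, 2 and 3, against 4.19, 7.24 and 1.48 CPM in WT libraries 1, 2 and 3. The highest library was cKO 1, the lowest was WT 3, and the groups overlapped, and the log2 fold change of 0.76 had a 95% confidence interval of -0.61 to 2.12. It was 0.22 without WT library 3, 0.32 without cKO library 1 and 1.21 without WT library 2. Its ratio of highest to lowest library, 8.43, was the largest of the 39 members. Xaf1, a proapoptotic partner of XIAP, was at 41.0, 40.1 and 40.7 CPM in cKO, against 34.9, 40.1 and 38.0 CPM in WT, a log2 fold change of 0.11 (95% confidence interval -0.05 to 0.27). Lgals3bp, a secreted galectin-binding glycoprotein, was at 152, 168 and 112 CPM in cKO and at 154, 153 and 126 CPM in WT. Rtp4 and Ifi35 had log2 fold changes of -0.066 (SE 0.125) and 0.00048 (SE 0.070), the second of which turned below 0 with median-of-ratios or quantile scaling.

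The GTPases of the Gbp and Irg families attack the vacuoles of intracellular microbes and are classical targets of interferon gamma. Of the 6 members, 5 had a log2 fold change below 0 and 1, Irgm1, above 0. The count of 5 held under each of the 17 other settings tried, and none of the 6 passed the limma test (adjusted p = 1.00). Gbp7 was at 134, 140 and 139 CPM in cKO libraries 1, 2 and 3, against 141, 146 and 150 CPM in WT libraries 1, 2 and 3. Every cKO library was below every WT library, by little, where 1.77% of all genes had all cKO libraries lower. The means were 137 ± 3.48 CPM in cKO and 146 ± 4.23 CPM in WT (SD, n = 3 each), a change of -5.52% with a log2 fold change of -0.082 (95% confidence interval -0.19 to 0.03), and the exact permutation p was 0.1, the smallest possible.

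Ifi47, an Irg GTPase of the effector kind, was at 135, 125 and 128 CPM in cKO, against 131, 140 and 139 CPM in WT, with a log2 fold change of -0.080 (SE 0.052). Gbp3 had the lowest log2 fold change of all members, -0.16 (95% confidence interval -0.42 to 0.09), at 39.3, 33.5 and 36.5 CPM in cKO and 37.8, 46.9 and 38.1 CPM in WT. WT library 2 stood above the other 5 libraries, and without that library the value was smaller in size, at -0.062. Gbp2 had a log2 fold change of -0.10 (SE 0.091), which lay between -0.18 (without WT library 1) and -0.063 (without WT library 3). Igtp had one of -0.11 (SE 0.090), which was -0.017 without WT library 3, its highest library, and -0.18 without WT library 1. Irgm1, a regulatory Irg GTPase that guards the membranes of the cell itself, was at 68.4, 70.0 and 63.7 CPM in cKO, against 63.8, 67.6 and 60.2 CPM in WT, with overlap between the groups.

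**Figure D3:**
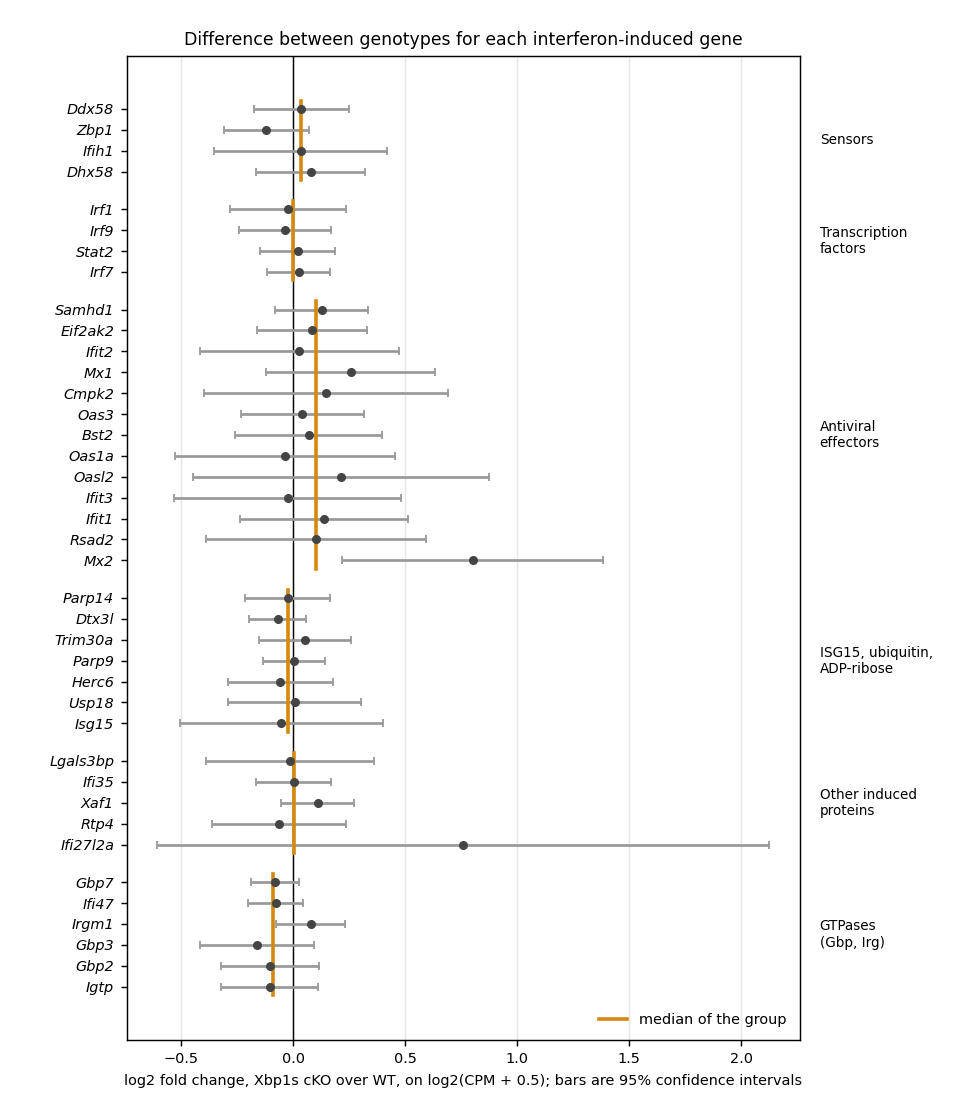
Log2 fold change of cKO over WT with its 95% confidence interval for each member, grouped by role, with the median of each group as a vertical bar. Only the interval of Mx2 (0.22 to 1.38) lies off 0, and 5 of 6 GTPase values lie left of 0.

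Set side by side, the type I members had a median log2 fold change of 0.027, with 22 of 33 above 0, and the GTPase members one of -0.093, with 5 of 6 below 0, a difference of 0.12. The difference between the classes lay between 0.071 and 0.20 whichever library was left out. No test was made of it, because the members were chosen with results of these data known. The mean deviation of the type I members from their mean over 6 libraries was 0.16, 0.032 and -0.078 in cKO libraries 1, 2 and 3, against -0.039, 0.045 and -0.12 in WT libraries 1, 2 and 3, on the log2 scale. The groups overlapped. For the GTPase members the mean deviation was -0.024, -0.058 and -0.033 in cKO libraries and -0.046, 0.097 and 0.063 in WT libraries, with WT library 1 among the cKO libraries. Without WT library 1 the GTPase median was -0.14 and the type I median -0.0028, with 16 of 33 above 0. Without cKO library 1 the type I median was -0.00091, also with 16 of 33 above 0, and without WT library 3 the type I median was 0.0091. The NK cell markers, all 16 listed and none at 0 in any library, went the same way as the GTPase members: 15 of 16 had a log2 fold change below 0 (median -0.11), and their summed level was 13057 to 14193 CPM in cKO libraries and 13898 to 15798 CPM in WT libraries. In bulk RNA, fewer cells of a type and less RNA per cell cannot be told apart, and the part of NK cell content in the GTPase values was not tested.

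The members varied between libraries of a genotype, and not in unison. Within a genotype the median SD of a member was 0.14 on the log2 scale, where the median size of its log2 fold change was 0.069. The median SD was 0.28 for the antiviral effectors and 0.096 for the GTPases, where that of all genes was 0.12. Library 3 was the lowest of its genotype in both cKO and WT for 14 of 39 members, where 22.5% of all genes showed this order, and for 9 of the 13 antiviral effectors. Ifit2 showed this order, at 51.8, 49.2 and 36.9 CPM in cKO libraries 1, 2 and 3, against 46.6, 54.0 and 35.3 CPM in WT libraries 1, 2 and 3. Oasl2 did as well, at 12.4, 9.17 and 6.65 CPM in cKO and 7.69, 10.6 and 5.86 CPM in WT. The opposite order, with library 3 highest in both genotypes, was found for 8 members, where 25.9% of all genes showed it, and Irf1, Ddx58, Mx1 and Parp14 were among them. This way of sorting was chosen after the values were seen, and it is given with no test.

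Pairs of members differed in how they moved together. Over the 6 libraries the 741 pairs had a median Pearson r of 0.13, with 422 above 0, and the range ran from -0.96 for Ifih1 with Herc6 to 0.99 for Dhx58 with Eif2ak2. Rsad2 with Bst2 (0.97) and Ddx58 with Irf1 (0.95) were close, and Ifih1 with Ddx58 (-0.93), both RNA sensors of the same family, ran opposite ways. These values rest on 6 libraries that share depth and composition, and they describe these libraries.

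**Figure D4:**
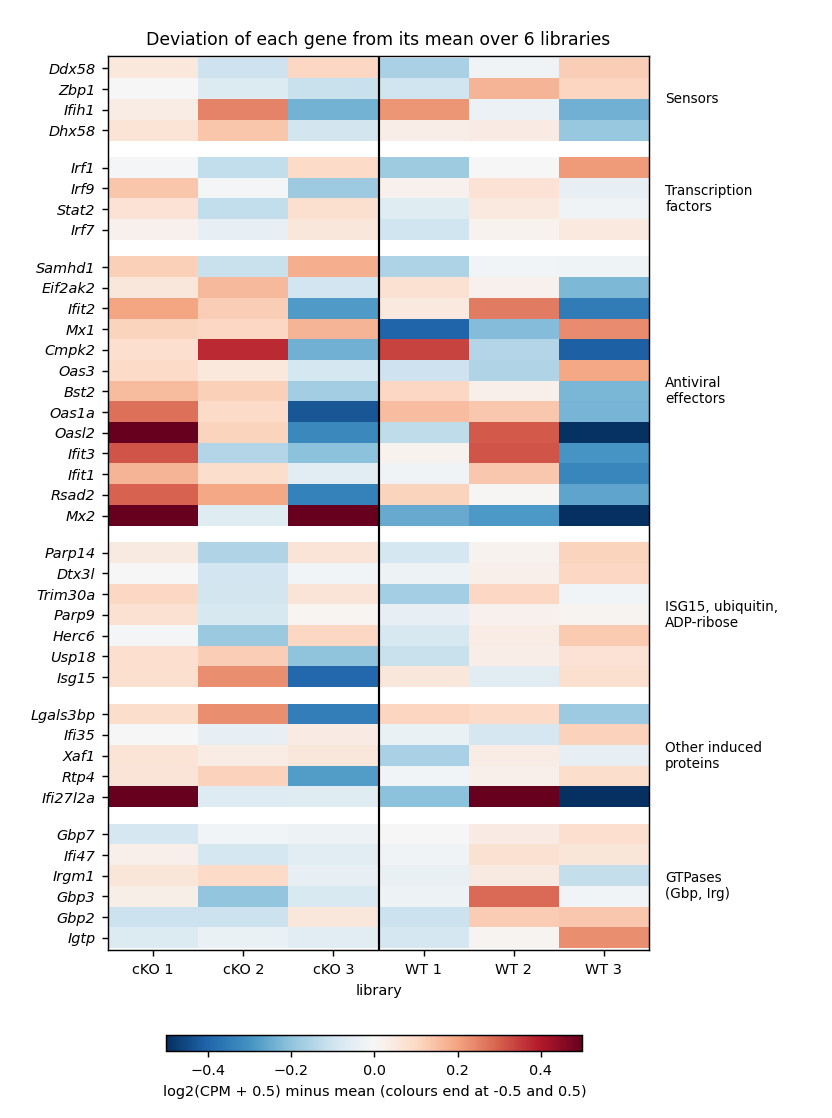
Deviation of each member's log2(CPM + 0.5) from its mean over 6 libraries, red above and blue below, with 3 cKO libraries left of 3 WT libraries and genes grouped by role. Many antiviral effectors are blue in libraries 3 of both genotypes, while Irf1, Ddx58 and Mx1 are red there, and the GTPase rows are pale.

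Markers of other spleen cells differed between the libraries and are given beside Mx2 and Ifi27l2a. Monocyte and macrophage markers, 7 of 17 listed, summed to 402 to 632 CPM in cKO and to 360 to 467 CPM in WT, and 6 of the 7 had a log2 fold change above 0. The markers C1qa, C1qb, C1qc, Mertk, Vcam1, Spic, Marco, Siglec1, Fcgr1 and Cd14 were not analysed here. B cell markers, 18 of 18 listed, summed to 1314 to 2929 CPM in cKO and to 1023 to 1817 CPM in WT, with all 18 above 0. Plasmacytoid dendritic cell markers, 8 of 10 listed and with the member Bst2 among them, summed to 214 to 318 CPM in cKO and 205 to 240 CPM in WT, with all 8 above 0. Neutrophil markers, 11 of 12 listed, summed to 133 to 185 CPM in cKO and 114 to 153 CPM in WT, and 8 of the 10 tested had a log2 fold change above 0.

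Of these listed markers none was at 0 in any library. Ifi27l2a was highest in cKO library 1 and WT library 2, and so within each genotype were the monocyte and macrophage markers (632 CPM in cKO library 1 and 467 CPM in WT library 2), the neutrophil markers (185 and 153 CPM) and the T cell markers (179 and 184 CPM). The plasmacytoid dendritic cell markers had the same highest libraries. The summed conventional dendritic cell markers did too, but the mean deviation of these markers was highest in cKO library 3 (0.50) and WT library 3 (0.24). The summed NK cell markers were also highest in cKO library 1 and WT library 2 (14193 and 15798 CPM), though cKO library 2 was close at 14016 CPM. Mx2 was lowest among the cKO libraries in library 2 and lowest among the WT libraries in library 3. The B cell markers showed the same lowest libraries, at 2829, 1314 and 2929 CPM in cKO libraries 1, 2 and 3, against 1587, 1817 and 1023 CPM in WT libraries 1, 2 and 3, and so did the monocyte and macrophage, plasmacytoid dendritic cell and T cell markers. The part of these cells in the values of Mx2 and Ifi27l2a was not tested. T cell markers, 11 of 11 listed (105 to 179 CPM in cKO, 87.8 to 184 CPM in WT, with 7 above 0), conventional dendritic cell markers, 7 of 9 listed (788 to 832 CPM in cKO, 830 to 978 CPM in WT, with 6 of the 7 log2 fold changes above 0 although the sum was not higher), and erythroid markers, 8 of 9 listed (184 to 365 CPM in cKO, 179 to 440 CPM in WT, with 3 of the 6 tested above 0), overlapped between the genotypes.

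**Figure D5:**
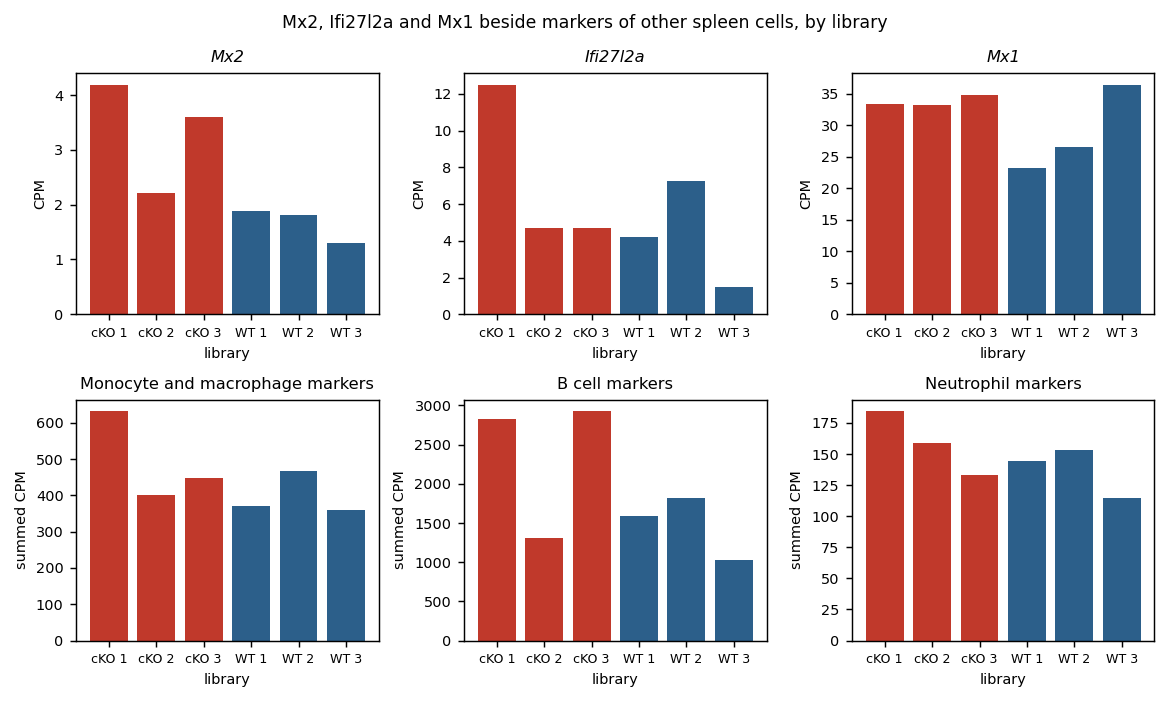
CPM of Mx2, Ifi27l2a and Mx1 (upper row) and summed CPM of the listed markers of monocytes and macrophages, B cells and neutrophils (lower row), by library, with cKO in red left of WT in blue. Within each genotype, Ifi27l2a and the monocyte, macrophage and neutrophil markers are highest in cKO library 1 and WT library 2. The summed NK cell markers (not shown) are as well, by little among the cKO libraries.

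Further genes of the pathway were taken from 6 lists drawn up by function, and none of those tested passed the limma test in either direction. Of the receptor and kinase genes, values are given for Ifngr2 and Jak1. Ifngr2, a chain of the interferon gamma receptor, was at 15.8, 9.59 and 15.1 CPM in cKO libraries 1, 2 and 3, against 8.38, 10.8 and 6.96 CPM in WT libraries 1, 2 and 3, a log2 fold change of 0.59 (SE 0.233, limma adjusted p = 1.00). Its highest libraries were cKO 1 and 3, as for the summed B cell and plasmacytoid dendritic cell markers, and the groups overlapped. The part of these cells in its values was not tested. Jak1, the kinase that all interferon receptors share, was at 1785, 1683 and 1836 CPM in cKO and at 1788, 1878 and 1946 CPM in WT. Among 12 upstream sensors, adaptors and factors, 6 were above 0 and 6 below 0. Irf3, which switches on interferon genes after nucleic acid sensing, was at 95.3, 95.2 and 97.7 CPM in cKO, against 101, 104 and 107 CPM in WT, without overlap (log2 fold change -0.11, SE 0.045, limma adjusted p = 1.00). Over all genes 1.77% had all cKO libraries lower.

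Tlr9, a sensor of microbial DNA, was at 27.8, 9.83 and 24.3 CPM in cKO and 13.1, 13.8 and 7.23 CPM in WT. Its highest libraries were cKO 1 and 3, as for Ifngr2, and the part of other spleen cells in its values was not tested. Of 9 negative regulators 3 were above 0, with the largest value for the phosphatase gene Ptpn6 (log2 fold change 0.28, limma adjusted p = 1.00). Ptpn6 was at 227, 192.4 and 203 CPM in cKO, against 184, 192.0 and 142 CPM in WT. Its groups did not overlap, but cKO library 2 and WT library 2 were nearly equal, and WT library 3 was the lowest. All cKO libraries were higher in 2.55% of all genes. Irf2bp2, a corepressor, was at 129, 130 and 125 CPM in cKO and at 135, 118 and 112 CPM in WT, with overlap and a log2 fold change of 0.076. The interferon gene Ifng was at 34.8, 31.9 and 47.9 CPM in cKO and 31.1, 36.0 and 48.5 CPM in WT, with library 3 highest in both genotypes and a log2 fold change of -0.011 (SE 0.206). The other interferon genes of the list, Ifnb1, Ifna1, Ifna2, Ifna4, Ifnk and Ifne, were not analysed here.

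Of 79 further interferon-induced genes 68 were listed and tested, 41 above 0 and 27 below 0, with a median log2 fold change of 0.015. Slfn9, of the Schlafen family, was at 41.9, 41.2 and 39.5 CPM in cKO libraries 1, 2 and 3, against 46.5, 45.0 and 45.5 CPM in WT libraries 1, 2 and 3 (log2 fold change -0.16, SE 0.054, limma adjusted p = 1.00). Rnf213, a giant ubiquitin ligase with antimicrobial activity, lay the other way, at 549, 496 and 532 CPM in cKO and 475, 469 and 490 CPM in WT (log2 fold change 0.14, SE 0.055, limma adjusted p = 1.00). In both genes the groups did not overlap. Of the 68 genes 1 had all cKO libraries higher and 2 had all lower, where 4.32% of all genes had groups that did not overlap. Of 15 further Gbp and Irg GTPases 8 were listed and tested, 2 above 0 and 6 below 0, with a median of -0.015, smaller in size than the -0.093 of the 6 members. Gm12250, an Irg GTPase gene, was at 25.8, 25.4 and 24.8 CPM in cKO, against 25.9, 28.5 and 31.0 CPM in WT, without overlap and with a log2 fold change of -0.16 (SE 0.083). All cKO libraries were lower in 1.77% of all genes. Gbp4 was at 199, 180 and 196 CPM in cKO and at 187, 209 and 207 CPM in WT, with overlap and a log2 fold change of -0.066 (SE 0.065). The median of these 8 genes was above 0 without cKO library 2 (0.026), without WT library 2 (0.012) or without WT library 3 (0.017).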

How the data were processed

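RNA of purified splenic NK cells was sequenced as single reads on an Illumina HiSeq, per the labels' protocols. HISAT2, HTSeq and DESeq2 and the build mm10 are named in the submitters' processing notes, without parameters. The deposited table is named for RPKM, but its 6 columns each sum to 1000000 and the step between low values does not depend on gene length. The deposited values were therefore treated as CPM (reads per 1000000 over the listed genes), and 100% of them gave whole reads within 0.01 reads.

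Genes at 1 CPM or more in at least 3 libraries were tested, 11343 of 11717, with limma 3.58.1 (R 4.3.3) on log2(CPM + 0.5) with a mean-variance trend and Benjamini-Hochberg adjustment at 0.05. Fold changes of low genes are understated on that scale. Alternatives included edgeR 4.0.16 and DESeq2 1.42.0 on recovered reads. The code was tested on simulated data. Exon lengths came from the deposited table and exon overlaps from the GENCODE M21 annotation. Libraries were grouped by the labelled genotype. Values by library are given for the 2 members of smallest p and the member of highest level in each role, the members of highest and lowest fold change, and the 2 genes of smallest p in each pathway list; Isg15, Ifit2, Oasl2 and Irgm1 were added with their values in view. The members and lists were chosen with earlier results of these data known. The count over the list of receptor and kinase genes is not reported here.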

Additional observations from a re-analysis of the deposited data

How the results depend on the processing

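Under the 17 alternatives tried (2 other pseudocounts, 2 other filters, other scalings, no trend, edgeR, DESeq2, the replicate block and each library left out) no member passed the threshold. Over all genes DESeq2 called 6, where limma and edgeR called 0, and none of the 6 was a member. The members above 0 numbered 17 to 25 without 1 library and 20 to 23 under the other settings. The antiviral effectors above 0 numbered 6 to 13 without 1 library, and the 5 GTPase members below 0 remained 5 under every alternative. The ISRE core was in 22.9% of member windows when searched on the gene strand only, against 1.74% of all windows searched that way. Values of 4 members turned sign with other scalings or tools. Those of Usp18, Parp9 and Ifi35 lay close to 0, and that of Rsad2 was 0.099. With quantile normalization they were -0.022 for Rsad2, -0.062 for Usp18 and -0.011 for Ifi35. With median-of-ratios scaling they were -0.0072 for Usp18, -0.0092 for Parp9 and -0.012 for Ifi35. With edgeR they were -0.00048, -0.0071 and -0.013 for the same 3 genes, and with DESeq2 -0.00071, -0.0074 and -0.014. The causes were not tested. Leaving out 1 library at a time, the log2 fold change ran over -0.029 to 0.17 for Bst2, -0.021 to 0.35 for Cmpk2, -0.037 to 0.11 for Ddx58, -0.0082 to 0.15 for Eif2ak2, -0.12 to 0.020 for Herc6 and -0.041 to 0.058 for Ifi35. The range was -0.084 to 0.16 for Ifih1, -0.14 to 0.17 for Ifit2, -0.19 to 0.13 for Ifit3, -0.12 to 0.076 for Irf1, -0.020 to 0.053 for Irf7 and -0.12 to 0.044 for Irf9. It was -0.18 to 0.13 for Isg15, -0.14 to 0.15 for Lgals3bp, -0.18 to 0.17 for Oas1a, -0.026 to 0.15 for Oas3, -0.00091 to 0.43 for Oasl2 and -0.077 to 0.042 for Parp14. Last, it was -0.034 to 0.045 for Parp9, -0.023 to 0.29 for Rsad2, -0.14 to 0.058 for Rtp4, -0.015 to 0.085 for Stat2, -0.020 to 0.12 for Trim30a and -0.055 to 0.11 for Usp18. These 24 members changed sign with the library left out, and the other 15 kept their sign, though not their size: the range was 0.22 to 1.21 for Ifi27l2a, 0.00083 to 0.14 for Dhx58, 0.0091 to 0.24 for Ifit1 and -0.18 to -0.017 for Igtp.

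The shared replicate numbers did not pair the samples: the deviations of same-numbered libraries correlated at -0.17, -0.51 and 0.48, and libraries 1 and 2 of each genotype correlated best with another number. With the replicate block 0 genes passed, as without it. That block follows the numbers, while cKO library 1 correlated best with WT library 2 (0.65) and cKO library 2 with WT library 1 (0.59). No fit was made with those pairs, so variation that they share stays in the error of the fits given here. With 3 libraries a group the exact permutation test cannot go below 0.1, and the median standard error over all genes was 0.096, so differences of the size seen for most members were not detectable.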
